A study of Mus musculus with 28 samples.

Results

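Krt75, Havcr1, Il20ra, Zfp750, Ly6g6e, Fam179a, Cldn3, Gbp2, Hmgn5 and Fbxo40 are 10 genes whose RNA fell steeply in synchronised wild-type spermatogonia 12 to 18 h after retinoic acid. They were picked by name from both count tables, out of 43253 features kept, and selected on their steep falls in WT between 0 h and 12 or 18 h, so those WT values are given as a description and not tested. The rule did not use the KO libraries or the WT libraries of 48 h and later. Following the 10 genes in them addresses which of the early losses also occur without Stra8.

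Germ cells were sorted, by the PIWIL2-eGFP reporter, from testes of Stra8 KO and Stra8 WT mice, whose background descends from C57BL/6 and 129s4/SvJae. In all groups, KO and WT alike, the mice had 7 days of WIN 18,446, which blocks the making of retinoic acid. Testes were taken at the end of this treatment (0 h) or 12, 18, 48, 72, 96 or 120 h after an injection of retinoic acid. Each of the 14 groups had 2 polyA RNA libraries, 28 in all. The sources used here do not give the age of the mice, the dose of retinoic acid or which part of Stra8 was deleted. The labels do not call the replicates separate animals, so the p-values reflect the spread between these libraries alone, and it may be technical in origin. These are bulk samples, in which fewer cells of a type and less RNA per cell cannot be told apart.

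Retinoic acid, a derivative of vitamin A, binds nuclear receptors and drives undifferentiated spermatogonia into the differentiating, Kit-positive state. STRA8 is a nuclear protein that germ cells make in answer to retinoic acid and that is known for its part in the entry into meiosis. Holding back retinoic acid and then supplying it lets the spermatogonia take this step together. The 10 genes belong to families better known outside the germ line: a hair follicle keratin, surface receptors, a tight junction protein, an epidermal zinc-finger factor, an interferon-inducible GTPase, a nucleosome-binding protein and a muscle ubiquitin ligase subunit.

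Total counts were 913055 to 9507928 per KO library and 5752475 to 10135820 per WT library. KO replicate 2 at 72, 96 and 120 h was shallow, and 3 counts there stand for 2.78, 3.29 and 2.91 CPM (the count over the library's total, scaled to 1000000). Stra8 itself had 0.947 to 1.71 CPM in KO at 0 h, 16.3 to 30.7 CPM in KO at 12 and 18 h, and 0 to 62.2 CPM in KO from 48 h on. In WT it had 7.66 to 15.4 CPM at 0 h, 713 to 1043 CPM at 12 and 18 h and 17.4 to 199.6 CPM from 48 h on. The value of 62.2 CPM, from 417 reads, came from the library labelled KO 48 h replicate 1 and goes partly against its label, while KO 48 h replicate 2 had 2.10 CPM. The germ cell genes Ddx4 and Dazl had 296 CPM or more in each of the 28 libraries, and the leukocyte gene Ptprc had 0 to 0.971 CPM.

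All 10 genes are annotated as protein coding, and positions are those of GRCm38 (mm10), from the GENCODE annotation. Krt75 lies on chromosome 15 (101563345 to 101573904, minus strand), Havcr1 on chromosome 11 (46735080 to 46779578, plus strand) and Il20ra on chromosome 10 (19712570 to 19760053, plus strand). Zfp750 lies on chromosome 11 (121510978 to 121519333, minus strand), inside the Tbcd locus on the other strand. Ly6g6e (35076902 to 35078804, plus strand) and Fam179a, now named Togaram2 (71673261 to 71729669, plus strand), are both on chromosome 17. Cldn3 lies on chromosome 5 (134986214 to 134987472, plus strand), Gbp2 on chromosome 3 (142620602 to 142638008, plus strand), Hmgn5 on chromosome X (109004534 to 109013404, minus strand) and Fbxo40 on chromosome 16 (36963460 to 36990467, minus strand). Of the exon bases of Ly6g6e, 18.0% overlap Ly6g6d on the opposite strand, and the sources used here do not say if the counting used strand. The other 9 genes had 0 to 3.95% of their exon bases in common with another gene. Gbp2 belongs to a family of similar copies, in which reads of one gene can be lost or credited to another.

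RefSeq gave promoter sequences (build GRCm38.p6) for 7 of the 10 genes; Zfp750, Ly6g6e and Fam179a are named only. The 250 bases before the start are shown for Fbxo40 and Krt75. These genes kept the largest shares of their 0 h level in KO at 12 h (97.2% and 45.9%). The bases are also shown for Il20ra and Gbp2, a pair called lower in KO at 18 h. All are written 5′ to 3′ on the strand of the gene, and capitals mark matches to any of the 8 motifs searched.
Fbxo40, chr16:36990468-36990717, minus strand: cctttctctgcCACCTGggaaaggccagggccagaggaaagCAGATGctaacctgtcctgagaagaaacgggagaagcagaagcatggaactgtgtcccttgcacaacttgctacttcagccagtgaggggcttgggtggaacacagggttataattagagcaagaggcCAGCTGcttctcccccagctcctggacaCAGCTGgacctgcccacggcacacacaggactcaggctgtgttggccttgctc
Krt75, chr15:101573905-101574154, minus strand: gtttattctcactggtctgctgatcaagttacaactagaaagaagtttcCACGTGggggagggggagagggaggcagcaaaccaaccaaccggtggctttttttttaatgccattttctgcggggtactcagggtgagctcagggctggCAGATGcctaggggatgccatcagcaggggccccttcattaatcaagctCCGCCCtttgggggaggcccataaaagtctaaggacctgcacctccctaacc
Il20ra, chr10:19712337-19712586, plus strand: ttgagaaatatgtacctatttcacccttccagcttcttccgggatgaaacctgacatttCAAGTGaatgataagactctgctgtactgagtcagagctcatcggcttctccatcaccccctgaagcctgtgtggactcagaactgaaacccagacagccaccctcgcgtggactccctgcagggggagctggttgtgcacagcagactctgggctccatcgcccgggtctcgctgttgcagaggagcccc
Gbp2, chr3:142620413-142620662, plus strand: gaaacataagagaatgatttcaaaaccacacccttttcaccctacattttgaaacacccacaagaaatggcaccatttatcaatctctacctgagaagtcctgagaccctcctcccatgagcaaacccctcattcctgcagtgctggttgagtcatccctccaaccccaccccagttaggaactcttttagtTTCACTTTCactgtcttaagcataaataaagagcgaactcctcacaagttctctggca

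The motifs were searched on both strands in the 250 bases before each of the 10 RefSeq starts of these 7 genes, and no match overlapped another. These were the half-site of retinoic acid receptors (AGGTCA), a motif reported for STRA8 (CNCCTCAG), the E-box (CANNTG) and the CCAAT box, named by its letters. The others were the GC box (GGGCGG), the TATA box (TATAAA), the core of interferon-stimulated elements (GAAANNGAA) and the gamma-activated site (TTCNNNGAA). CNCCTCAG was in 0 of the 10 windows, against 6.42% of all 32851 promoters in the table. CANNTG was in 6 of the 10 windows, against 66.2% of all promoters: the capitals in Fbxo40 are 4 such matches, Krt75 has 2 and Il20ra 1. The other capitals in Krt75 are a GC box on the other strand, found in 32.7% of all promoters. AGGTCA was only in the window of the second Fbxo40 start (chr16:36979137-36979386, 2 matches), and is in 14.02% of all promoters. The capitals in Gbp2 are the interferon-stimulated core on the other strand, in 7.13% of all promoters. The CCAAT box was in 1 window, that of Hmgn5 (33.9% of all promoters), and TATAAA and TTCNNNGAA were in 0 (12.4% and 7.02%).

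In WT, the expression of the 10 genes was lower in both libraries at 12 h and at 18 h than in either library at 0 h. The median fitted log2 change over the 10 genes was -4.54 at 12 h and -4.83 at 18 h, and it was the same with Il20ra at its bound at 12 h; the median over all 17519 genes tested was 0.01 and 0.02. In these comparisons 5.53% of all genes tested were called lower at 12 h and 6.87% at 18 h (adjusted p under 0.05, edgeR). All 10 genes passed the filter on low counts. At the level of Krt75 at 0 h (5.38 CPM) or above, 38 of 11379 genes were lowered at least as far as Fbxo40, whose deeper change of 12 and 18 h was -3.98. Just inside that depth but not chosen were Pla2g7 (-4.01) and Ccdc65 (-4.00), and just outside it were A930011G23Rik (-3.98) and Nanos2 (-3.96).

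Surface proteins come first. Havcr1, also called KIM-1 or TIM-1, is a phosphatidylserine receptor best known from injured kidney. It had 13.99 and 13.7 CPM at 0 h, 4.23 and 4.41 CPM at 12 h and 6.03 and 2.41 CPM at 18 h in KO libraries. In WT libraries it had 23.4 and 9.50 CPM at 0 h, 0.296 and 0.154 CPM at 12 h, and 0.199 and 0 CPM at 18 h. The KO libraries of 12 and 18 h lay between these extremes, below both KO libraries of 0 h and above both WT libraries of their own time. With only 2 reads in WT at 18 h, the level was 161-fold lower than at 0 h (exact 95% interval 44.2 to 1338, for counting error only). The KO log2 change was -1.65 ± 0.61 (SE) at 12 h and -1.61 ± 0.61 at 18 h, and neither passed (edgeR quasi-likelihood test, adjusted p = 0.0982 and 0.1004).

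Il20ra encodes the alpha chain of the receptor for the cytokines IL-19, IL-20 and IL-24. In KO libraries it had 5.79 and 5.14 CPM at 0 h, 0.682 and 0.551 CPM at 12 h, and 0 and 1.10 CPM at 18 h. In WT libraries it had 7.55 and 4.59 CPM at 0 h, 0 reads in both at 12 h, and 0.0994 and 0.123 CPM at 18 h. In both genotypes the 12 h and 18 h libraries were far below those of 0 h, and at 18 h KO and WT overlapped. Against a floor of 3 counts over the group, the WT level at 12 h was at least 35.1-fold lower than at 0 h; at 18 h, with 2 reads, it was 57.6-fold lower (interval 15.5 to 483). In KO, Il20ra fell by 3.05 ± 0.87 on the log2 scale at 12 h (edgeR, adjusted p = 0.0302) and by 3.36 ± 0.91 at 18 h (adjusted p = 0.0216).

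Ly6g6e belongs to the Ly6 family of small surface proteins. Its KO libraries had 16.4 and 17.9 CPM at 0 h, 3.41 and 2.20 CPM at 12 h and 1.34 and 1.97 CPM at 18 h. Its WT libraries had 11.6 and 14.3 CPM at 0 h, 0.691 and 0.307 CPM at 12 h and 0.199 and 0.491 CPM at 18 h. In each genotype the 12 and 18 h libraries were below both of 0 h, and at 12 and 18 h both KO libraries were above both WT libraries. Ly6g6e fell in KO by 2.52 ± 0.42 on the log2 scale at 12 h (edgeR, adjusted p = 0.000511) and by 3.31 ± 0.45 at 18 h (adjusted p = 9.07e-05).

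Cldn3 encodes claudin 3, a tight junction protein that Sertoli cells use in the blood-testis barrier. It had 7.26 and 5.39 CPM at 0 h, 2.46 and 2.20 CPM at 12 h and 1.34 and 2.85 CPM at 18 h in KO libraries. It had 2.86 and 8.68 CPM at 0 h, 0.296 and 0.154 CPM at 12 h, and 0.497 and 0 CPM at 18 h in WT libraries. At both times KO libraries were above WT libraries and below the KO libraries of 0 h. The KO log2 change was -1.41 ± 0.65 at 12 h and -1.58 ± 0.66 at 18 h, and neither passed (edgeR, adjusted p = 0.198 and 0.146).

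Krt75, a keratin of the companion layer of the hair follicle, was one of the genes with the least loss in KO. KO libraries had 13.0 and 10.5 CPM at 0 h, 6.41 and 4.41 CPM at 12 h and 4.36 and 9.87 CPM at 18 h. WT libraries had 7.21 and 3.60 CPM at 0 h, 0.0987 and 0 CPM at 12 h and 0.597 and 0.245 CPM at 18 h. A single read remained in the WT group at 12 h, 95.3-fold lower than at 0 h (interval 16.7 to 3808), while each KO library of 12 and 18 h still had 4.36 CPM or more. The KO log2 change was -1.07 ± 0.59 at 12 h and -0.69 ± 0.58 at 18 h (edgeR, adjusted p = 0.294 and 0.519), which did not pass.

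Fam179a encodes a protein with TOG domains, which bind tubulin. It had 9.78 and 7.10 CPM at 0 h, 1.501 and 1.38 CPM at 12 h, and 1.34 and 0 CPM at 18 h in KO libraries. It had 10.3 and 4.59 CPM at 0 h, 0.296 and 0.307 CPM at 12 h and 0.398 and 0.123 CPM at 18 h in WT libraries. The 18 h libraries of the genotypes overlapped, and 1 of the KO libraries had no read. In KO it fell by 2.51 ± 0.63 on the log2 scale at 12 h (edgeR, adjusted p = 0.0141) and by 3.44 ± 0.69 at 18 h (adjusted p = 0.00309).

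A pair of the genes encode nuclear proteins. Zfp750, a zinc-finger factor of epidermal differentiation, had 14.6 and 13.96 CPM at 0 h, 1.36 and 1.65 CPM at 12 h and 2.85 and 0.877 CPM at 18 h in KO libraries. In WT libraries it had 10.8 and 6.55 CPM at 0 h, 0.197 and 0.461 CPM at 12 h, and 0.497 and 0 CPM at 18 h. It kept the smallest share of its 0 h level of the 10 genes in KO at 12 h, 10.6%. Zfp750 fell in KO by 3.22 ± 0.61 on the log2 scale at 12 h (edgeR, adjusted p = 0.00143) and by 2.81 ± 0.58 at 18 h (adjusted p = 0.00388). Tbcd, whose locus holds Zfp750, also fell, with log2 changes of -0.69 and -0.84 in KO at 12 and 18 h, and -0.79 and -1.09 in WT (adjusted p = 0.0362, 0.0116, 0.0113 and 0.00077).

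Hmgn5, an X-linked nucleosome-binding protein, had 38.1 and 85.7 CPM at 0 h, 21.6 and 14.6 CPM at 12 h and 23.1 and 13.4 CPM at 18 h in KO libraries. Its WT libraries had 40.5 and 128.7 CPM at 0 h, 2.47 and 7.37 CPM at 12 h and 5.37 and 7.98 CPM at 18 h. Per kilobase of exon it had the highest level of the 10 genes at 0 h, with 32.0 CPM per kb in KO and 43.7 in WT, against 1.501 and 1.32 for Fam179a, the lowest. The libraries of 0 h were far apart in both genotypes, and the KO log2 change of -1.70 ± 0.66 at 12 h and -1.66 ± 0.66 at 18 h did not pass (edgeR, adjusted p = 0.135 and 0.139).

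Gbp2 is an interferon-inducible GTPase of the guanylate-binding protein family. KO libraries had 16.4 and 16.2 CPM at 0 h, 5.46 and 1.93 CPM at 12 h and 3.18 and 2.85 CPM at 18 h. WT libraries had 24.0 and 18.3 CPM at 0 h, 1.68 and 0.461 CPM at 12 h, and 1.09 and 0 CPM at 18 h. Both KO libraries were below both WT libraries at 0 h and above them at 12 and 18 h. In KO the log2 change was -2.01 ± 0.65 at 12 h, which did not pass (edgeR, adjusted p = 0.0611), and Gbp2 fell by 2.35 ± 0.68 at 18 h (adjusted p = 0.0332).

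Fbxo40, the substrate-binding subunit of a muscle ubiquitin ligase that acts on IRS1, stood apart by its level in KO. It had 72.3 and 64.9 CPM at 0 h, 63.0 and 70.3 CPM at 12 h and 59.5 and 47.4 CPM at 18 h in KO libraries. It had 65.4 and 43.6 CPM at 0 h, 12.8 and 9.82 CPM at 12 h and 2.98 and 4.05 CPM at 18 h in WT libraries. The KO libraries of 0 and 12 h overlapped, while in WT the deeper loss came at 18 h. Its KO log2 change was -0.01 ± 0.30 at 12 h and -0.29 ± 0.30 at 18 h (edgeR, adjusted p = 0.989 and 0.620), against -2.24 and -3.98 in WT.

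**Figure D1:**
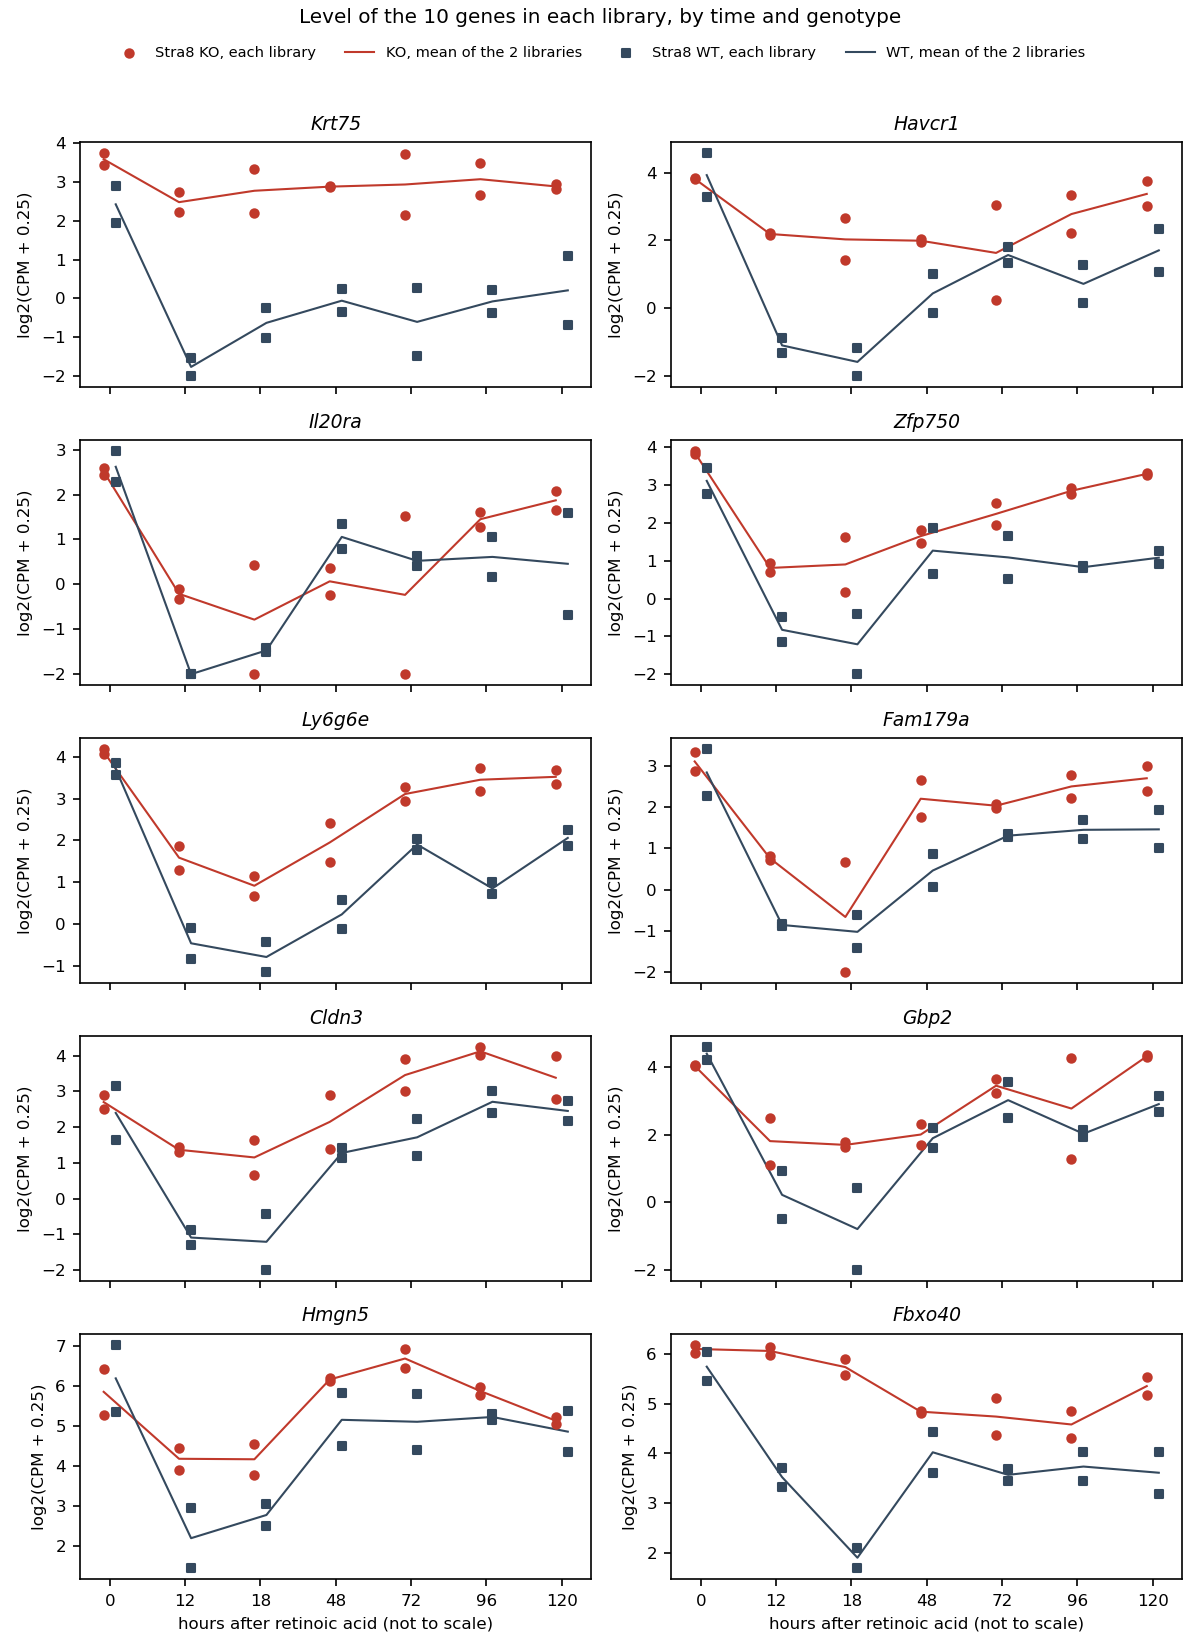
Level of each of the 10 genes, as log2 of CPM plus 0.25, in every library by hours after retinoic acid, with KO libraries as circles, WT libraries as squares and lines through the means of the 2 libraries. WT has its lowest mean at 12 or 18 h in each panel; Fbxo40 at 12 h in KO stays at 63.0 and 70.3 CPM.

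Counted together, 4 of the 10 genes fell in KO at 12 h (Il20ra, Zfp750, Ly6g6e and Fam179a) and 5 at 18 h (the same 4 and Gbp2), and 0 rose at either time. Over all genes tested, 4.44% were called lower in KO at 12 h and 5.11% at 18 h. The median log2 change in KO was -1.86 at 12 h and -2.01 at 18 h. Of the 10 genes, 9 had both KO libraries of 12 h below both KO libraries of 0 h, all but Fbxo40, and 10 had this at 18 h; the same held for 30.6% of all genes tested at 12 h and for 32.5% at 18 h. The mean KO level kept was 10.6 to 97.2% of 0 h at 12 h (median 26.0%) and 7.94 to 77.9% at 18 h (median 24.0%). The mean WT level kept was 0 to 20.8% at 12 h (median 3.88%) and 0.604 to 7.89% at 18 h (median 3.19%). Both KO libraries lay above both WT libraries for 10 of the 10 genes at 12 h and for 8 at 18 h, all but Il20ra and Fam179a. The same separation held for 22.6% and 19.4% of all genes tested, and 1.08% and 3.11% were called higher in KO at these times. At 0 h, Krt75, Zfp750 and Ly6g6e already lay above WT in this way (21.7% of all genes did) and Gbp2 below. The WT libraries of this contrast are those the genes were chosen on, so it has no test here.

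The KO change minus the WT change, a difference of log2 changes given without a test for the same reason, was 1.503 (Zfp750) to 5.25 (Il20ra) at 12 h, with a median of 2.35. At 18 h it was 1.27 (Fam179a) to 5.42 (Havcr1), with a median of 2.49. For Krt75 it was 5.03 at 12 h and 2.93 at 18 h, and for Fbxo40 2.23 and 3.69. The values of Il20ra and Krt75 at 12 h and of Havcr1 and Il20ra at 18 h rest on 0, 1, 2 and 2 WT reads and are no bounds. Without WT 12 h replicate 1 the WT change of Krt75 came to -8.11, since the library left had no read. Likewise, without WT 18 h replicate 1 the WT changes of Havcr1, Gbp2, Zfp750 and Cldn3 came to -9.71, -10.07, -8.78 and -8.18. The genes can be ordered by the share kept in KO at 12 h, with Fbxo40 (97.2%) and Krt75 (45.9%) at the top, Cldn3 (36.9%), Havcr1 (31.2%), Hmgn5 (29.2%) and Gbp2 (22.7%) in between, and Fam179a (17.1%), Ly6g6e (16.4%), Il20ra (11.3%) and Zfp750 (10.6%) at the bottom. From Krt75 downwards, the KO log2 changes of neighbours in this order differ by less than the larger of their SEs.

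**Figure D2:**
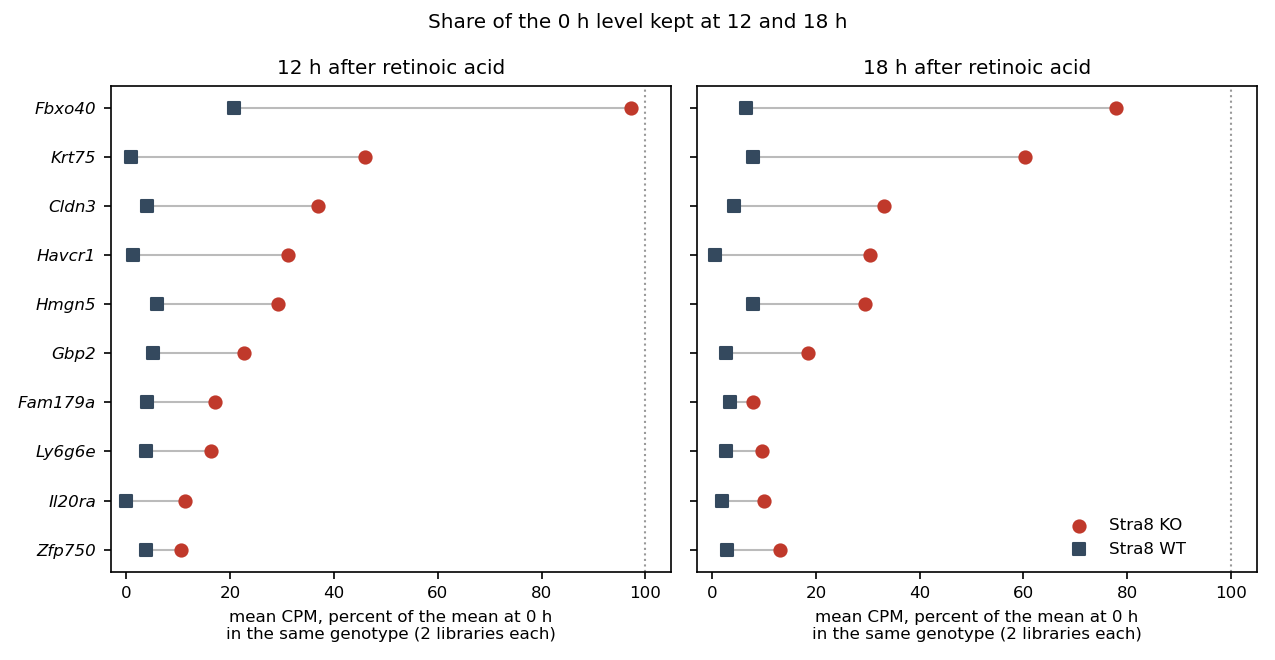
Mean CPM at 12 h and at 18 h as a percentage of the mean at 0 h in the same genotype, for the 10 genes, with KO as circles and WT as squares (2 libraries per mean). KO lies to the right of WT for each gene at both times, for example 97.2% in KO and 20.8% in WT for Fbxo40 at 12 h.

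Single libraries decided part of these calls. At 12 h, 2 to 3 genes were called in KO when any 1 of the 4 libraries was left out. Zfp750 and Ly6g6e were called each time, Il20ra was not called without any one of the 4 (adjusted p = 0.0626 to 0.218), and Fam179a was not called without KO 0 h replicate 1 (0.165), KO 12 h replicate 1 (0.141) or KO 12 h replicate 2 (0.103). At 18 h, 2 to 4 genes were called. Ly6g6e was called each time, and Gbp2 was not called without any one of the 4 (0.0787 to 0.198). Il20ra was not called without KO 0 h replicate 1 (0.144) or KO 18 h replicate 1 (0.254), Zfp750 without KO 18 h replicate 2 (0.0772) and Fam179a without KO 0 h replicate 1 (0.0517). A fit on the KO libraries of the times compared alone called 9 genes at 12 h and 8 at 18 h. The share of all genes that this fit called is not given here, so these counts cannot be set against those of the fit on all libraries.

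At late times, from 48 to 120 h, most of the genes were higher in KO than in WT. Averaged over the 4 times, 8 of the 10 genes were called higher in KO, 0 lower, and Il20ra and Hmgn5 did not pass; over all genes tested, 14.8% were called higher. The median log2 difference over the 10 genes was 1.20, and over all genes tested -0.01. The rule used no late library of either genotype.

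Krt75 had the largest late difference of the 10, and was also higher in both KO libraries at 0 h. Its 8 late KO libraries had 4.15 to 13.0 CPM (median 7.10) and its 8 late WT libraries 0.109 to 1.89 CPM (median 0.725), with no overlap, and the log2 difference was 3.20 ± 0.37 (edgeR, adjusted p = 1.41e-06). Ly6g6e had 2.54 to 13.0 CPM (median 9.10) in late KO libraries and 0.665 to 4.48 CPM (median 2.44) in late WT libraries, a log2 difference of 1.85 ± 0.22 (adjusted p = 2.51e-06 by the same test). Fbxo40 had 19.7 to 46.0 CPM (median 28.6) in late KO libraries and 8.84 to 21.3 CPM (median 12.3) in late WT libraries, a log2 difference of 1.10 ± 0.17 (adjusted p = 3.06e-05). The ranges of Ly6g6e and Fbxo40 over all late times overlap between genotypes, while at each single late time both KO libraries of these 2 genes were above both WT libraries. At 0 h the log2 difference of KO over WT, not tested, was 1.10 for Krt75, 0.70 for Zfp750 and 0.38 for Ly6g6e. The late KO change from 0 h minus that of WT, also not tested, was 2.10 for Krt75, 0.72 for Zfp750 and 1.47 for Ly6g6e, and over the 10 genes 0.56 (Il20ra) to 2.10 with a median of 1.17.

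Havcr1 (1.64 ± 0.34, adjusted p = 0.000775), Zfp750 (1.42 ± 0.30, 0.00107), Cldn3 (1.21 ± 0.32, 0.00534) and Fam179a (1.18 ± 0.32, 0.00672) were also higher in late KO on the log2 scale (edgeR, as before). Gbp2 passed narrowly, at 0.91 ± 0.33 (adjusted p = 0.0412). Hmgn5 had 32.4 to 120.5 CPM in late KO libraries and 20.1 to 55.7 CPM in late WT libraries, a difference of 0.75 ± 0.32 (adjusted p = 0.0917). Il20ra had 0 to 3.99 CPM in late KO libraries and 0.374 to 2.77 CPM in late WT libraries, a difference of 0.39 ± 0.42 (adjusted p = 0.515).

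Leaving out 1 of the 16 late libraries at a time left 6 to 8 genes called. Krt75, Zfp750, Ly6g6e, Fam179a, Cldn3 and Fbxo40 were called each time. Havcr1 was not called without KO 72 h replicate 1 (0.98, adjusted p = 0.252), and Gbp2 was not called without any one of 12 of the 16, down to 0.22 without KO 96 h replicate 1. Hmgn5 was called without WT 48 h replicate 2 (0.95, adjusted p = 0.0436) or WT 72 h replicate 2 (0.94, 0.0387). The Il20ra difference turned to -1.27 without KO 72 h replicate 1, where the remaining KO library, a shallow one, had 0 reads. Without the library labelled KO 48 h replicate 1, which held Stra8 reads, 7 genes were called, and without the 3 shallow KO libraries 8.

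By single time, Krt75 was called higher in KO at 48, 72, 96 and 120 h, with log2 differences of 3.23, 3.70, 3.29 and 2.59 (edgeR, adjusted p = 0.0446, 0.011, 0.0142 and 0.0155). At 48 h it was the only one of the 10 (0.291% of all genes tested were called higher). At 72 h Fbxo40 (1.25 ± 0.33, edgeR adjusted p = 0.0345) made 2 called genes, with 2.58% of all genes called higher. At 96 h Zfp750 (2.18 ± 0.61, 0.0416) and Ly6g6e (2.86 ± 0.46, 0.00119) made 3, with 3.32% of all genes. At 120 h Zfp750 (2.25 ± 0.59, 0.0122), Ly6g6e (1.38 ± 0.42, 0.0293) and Fbxo40 (1.66 ± 0.33, 0.002) made 4, with 8.54% of all genes. Both KO libraries were above both WT libraries for 6 of the 10 genes at 48 h, 7 at 72 h, 9 at 96 h and 9 at 120 h, against 20.5%, 25.3%, 22.3% and 30.2% of all genes tested. Il20ra went the other way at 48 h, with 1.04 and 0.599 CPM in KO libraries against 2.28 and 1.46 CPM in WT libraries.

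**Figure D3:**
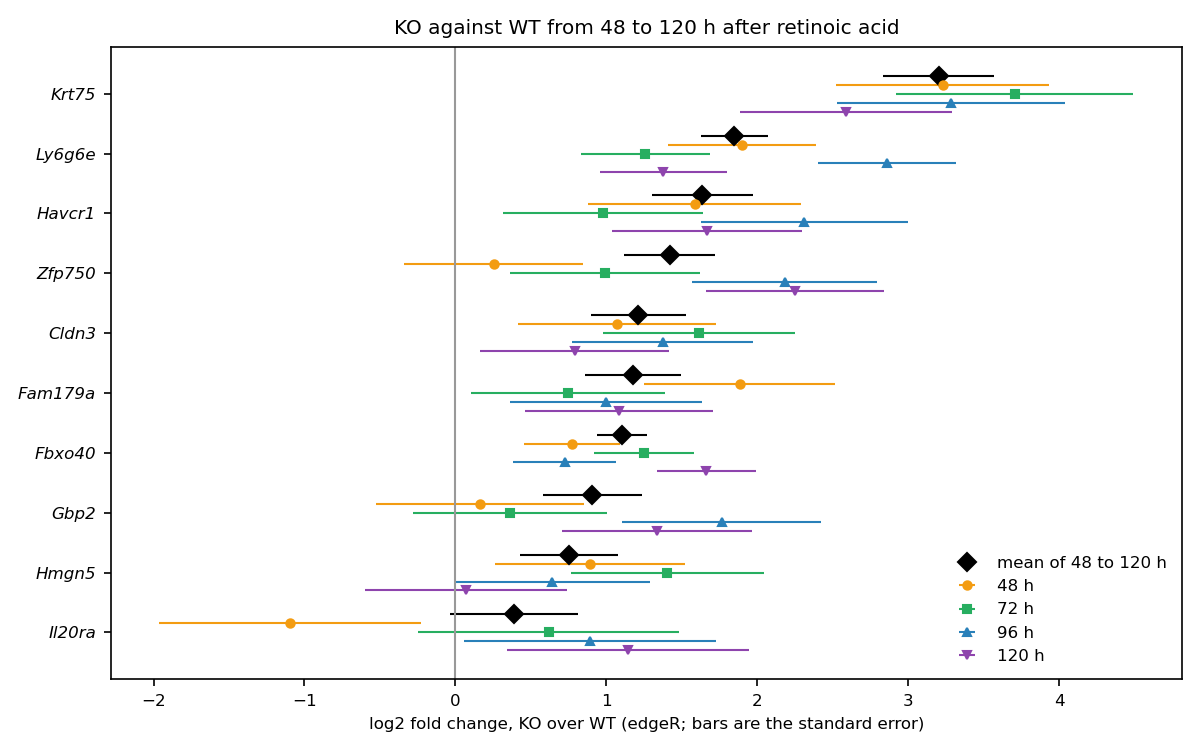
Log2 fold change of KO over WT with its standard error for the 10 genes, as the mean of 48 to 120 h (diamonds) and at each of the 4 times. The mean is above 0 for each gene, from 0.39 for Il20ra to 3.20 for Krt75, and the single value of Il20ra at 48 h is -1.09.

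Each of these single-time calls was lost on leaving out at least 1 of the 4 libraries compared. At 48 h, the Krt75 call was lost without any one of them (edgeR, adjusted p = 0.176 to 0.536). At 72 h, Krt75 was lost without WT replicate 2 (0.0631) or KO replicate 2 (0.104), and Fbxo40 without any one (0.0546 to 0.407). At 96 h, Krt75 was lost without WT replicate 1 (0.0733), WT replicate 2 (0.0731) or KO replicate 1 (0.146), Zfp750 without any one (0.0609 to 0.375) and Ly6g6e without KO replicate 1 (0.173). At 120 h, Krt75 (0.184 and 0.190), Zfp750 (0.118 and 0.137) and Fbxo40 (0.067 and 0.0907) were lost without WT replicate 2 or KO replicate 1, and Ly6g6e without any one (0.0953 to 0.148).

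The late levels were also set against 0 h within each genotype. In KO, against 0 h, the late mean was lower for 3 of the 10 genes: Zfp750 (-1.41 ± 0.39 on the log2 scale, edgeR adjusted p = 0.041), Ly6g6e (-1.09 ± 0.29, 0.0325) and Fbxo40 (-1.20 ± 0.23, 0.00507). Over all genes tested 2.21% were called lower in this comparison, and 0 of the 10 were called higher. Fbxo40, which did not pass in KO at 12 or 18 h, was lower in the late mean, with 28.03 and 28.7 CPM in KO libraries at 48 h. Cldn3 had 7.74 and 14.8 CPM at 72 h and 15.8 and 18.6 CPM at 96 h in KO libraries, above both of 0 h, but its late mean change of 0.56 ± 0.49 did not pass (adjusted p = 0.585). At 120 h the mean KO level was 56.0% (Hmgn5) to 175% (Cldn3) of 0 h, with a median of 66.5%. The KO late calls against 0 h depended on single libraries: without either KO 0 h library none of the 3 passed, without KO 48 h replicate 1 or KO 96 h replicate 2 Fbxo40 alone did, and likewise without the 3 shallow KO libraries.

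In WT, the late mean was -2.96 (Havcr1) to -0.51 (Cldn3) on the log2 scale against 0 h, with a median of -1.99, given without a test because the 0 h libraries chose the genes. At 120 h the mean WT level was 20.2% (Havcr1) to 92.2% (Cldn3) of 0 h, with a median of 28.3%. Between 120 h and 48 h in WT, Ly6g6e alone rose, with 3.41 and 4.48 CPM at 120 h against 1.24 and 0.665 CPM at 48 h (2.06 ± 0.46, edgeR adjusted p = 0.00433; without WT 48 h replicate 2, 0.0698). The other 9 did not pass, and over all genes tested 7.14% were called higher and 7.27% lower.

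Other genes of the same families were read from lists chosen by knowledge of each member. Of 22 tested genes of the guanylate-binding protein and interferon-gamma response list, 3 rose and 1 fell in KO at 12 h, and 2 rose and 1 fell at 18 h. In WT, 2 rose and 3 fell at 12 h, and 0 rose and 7 fell at 18 h. Late, 16 of the 22 were higher in KO than in WT and 0 lower, with a median log2 difference of 1.15. Gbp3, the neighbour of Gbp2 on the chromosome and of the same family, averaged 26.9 CPM at 12 h against 41.8 CPM at 0 h in KO (-0.63 ± 0.32, edgeR adjusted p = 0.255), and 4.44 CPM against 37.9 CPM in WT (-3.06 ± 0.36, 4.61e-06). In the late mean it was higher in KO (1.53 ± 0.17, adjusted p = 9.62e-07). Gbp9 rose at 12 h, by 2.23 ± 0.60 in KO and 2.26 ± 0.63 in WT (adjusted p = 0.0221 and 0.0189). Gbp8 rose in KO at 12 h (2.24 ± 0.60, 0.0201), and Tap2, a peptide transporter of antigen presentation, fell in WT at 18 h (-2.18 ± 0.59, 0.0157).

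Of 7 tested relatives and partners of Fbxo40, 1 rose and 2 fell at 12 h in either genotype. Fbxo32, another F-box gene of muscle wasting, averaged 24.1 CPM at 12 h against 211.5 CPM at 0 h in KO (-3.13 ± 0.25, edgeR adjusted p = 1.41e-07) and 12.8 CPM against 184 CPM in WT (-3.85 ± 0.26, 4.9e-09). Irs2, an insulin receptor substrate, fell by 1.44 ± 0.44 in KO (0.0419) and by 1.70 ± 0.43 in WT (0.0105) at 12 h. Fbxo32 and Irs2 thus fell in KO at a time when Fbxo40 had 97.2% of its 0 h level there. Cul1, the scaffold of the ligase, rose by 0.80 ± 0.19 in KO and by 0.58 ± 0.19 in WT at 12 h (0.00832 and 0.0441).

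Of 10 tested keratins, 1 rose and 0 fell in KO at 12 h, and 1 rose and 1 fell in WT. Krt24, a type I keratin, averaged 13.6 CPM at 12 h against 19.2 CPM at 0 h in KO (-0.46 ± 0.42, edgeR adjusted p = 0.581) and 3.66 CPM against 13.4 CPM in WT (-1.88 ± 0.45, 0.00756), and was higher in late KO (2.32 ± 0.25, 5.04e-07). Krt73, the nearest tested gene on one side of Krt75, went the other way, with a mean of 16.8 CPM at 12 h against 0.699 CPM at 0 h in KO (4.80 ± 0.85, 0.00119). In the Ly6 list, Ly6g6c averaged 4.03 CPM at 18 h against 4.54 CPM at 0 h in KO (-0.18 ± 0.53, 0.893) and 0.229 CPM against 4.25 CPM in WT (-4.15 ± 0.69, 0.000251). Of its 10 tested genes, Ly6h rose in KO at 12 h (2.64 ± 0.69, 0.0174) and 0 fell, and Ly6g6d fell in WT (-3.11 ± 0.98, 0.0416) and 0 rose. At 18 h, Ly6k (3.36 ± 1.00, 0.0362) and Ly6h (2.29 ± 0.69, 0.0378) rose in KO and 0 fell, and Ly6k (2.90 ± 0.82, 0.0208) and Lynx1 (1.90 ± 0.41, 0.00281) rose in WT, where Ly6g6c alone fell.

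In the remaining families few genes passed at 12 or 18 h. Of 8 tested claudins 0 passed in KO at 12 h and 1 rose in WT (Cldn12, 0.70 ± 0.19, edgeR adjusted p = 0.0153). Of 8 HMG genes 0 passed in KO at 12 h, and Hmga2 fell in WT (-2.79 ± 0.90, 0.0476). Of 4 TOG-array genes 0 passed in either genotype at 12 or 18 h, and all 4 (Ckap5, Clasp1, Clasp2 and Fam179b) were lower in late KO than in late WT, by 0.37 to 0.75 on the log2 scale. Hmga2, Ckap5, Clasp1, Clasp2 and Fam179b were named after their values were seen. Stat3, a transducer of IL-20 receptor signals, fell in KO (-0.63 ± 0.19, 0.0392) and WT (-1.12 ± 0.19, 0.000269) at 12 h, alone among 9 tested genes of its list. Of 12 tested genes listed as partners of Zfp750 or epidermal regulators, Kdm1a fell in WT at 12 h (-0.64 ± 0.20, 0.0341) and Klf4 rose in KO at 18 h (1.00 ± 0.26, 0.0164). The 3 other TIM genes did not pass the filter on low counts.

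The 10 genes are set here beside markers of the undifferentiated state. Of 27 such markers, 0 rose and 14 fell in KO at 12 h, and 1 rose and 20 fell in WT; the list medians were -0.91 and -1.87 on the log2 scale. At 18 h, 0 rose and 12 fell in KO, and 0 rose and 19 fell in WT. Nr2e1, a nuclear receptor of the brain and retina, averaged 2.48 CPM at 12 h against 38.5 CPM at 0 h in KO and 2.62 CPM against 45.1 CPM in WT. The log2 changes at 12 h in KO and WT were -2.985 and -3.39 for Nanos2, -3.65 and -3.10 for T, and -1.89 and -3.57 for Tspan8. Of 17 retinoic acid response genes, 10 rose at 12 h in either genotype. Stra8 itself is counted among them in both, with a mean of 28.5 CPM in KO and 886 CPM in WT at 12 h. Kit, the stem cell factor receptor, reached a mean of 1048 CPM in KO and 1206 CPM in WT. In the late mean, 15 of the 27 markers were higher in KO and 1 lower.

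Among 11537 genes of at least 5 CPM in WT at 0 h that are not among the 10, the profile over 14 group means of log2(CPM + 1) most like the average of the 10 (each scaled to unit variance) was that of Lhfpl2 (Pearson r = 0.982). Enc1 (0.981), Tcf7l2 (0.979), A930011G23Rik (0.979) and Synj2 (0.978) followed. The r of the 10 genes with their own average was 0.736 (Fbxo40) to 0.967 (Zfp750). All these points share the same 28 libraries. Of the 20 nearest tested neighbours on the chromosomes, 1 rose (Krt73) and 1 fell (Tbcd) in KO at 12 h, and 1 rose (Krt73) and 3 fell (Tbcd, Ly6g6d and Gbp3) in WT.

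Markers of other testis cells were read in the same libraries. The 9 peritubular and stromal markers summed to 366.5 to 496 CPM at 0 h, 136 to 162 CPM at 12 h and 135 to 151 CPM at 18 h in KO, and to 263 to 379 CPM, 103 to 111 CPM and 71.1 to 111 CPM in WT. Late, they summed to 189.8 to 407 CPM in KO and 96.6 to 179 CPM in WT. Most of this was Col1a1, which fell in both genotypes at 12 h (-1.96 ± 0.24 in KO and -2.05 ± 0.24 in WT, edgeR adjusted p = 3.07e-05 and 4.77e-06), the only one of 8 tested to pass there. The summed level of the list was thus lower at 12 and 18 h than at 0 h in both genotypes, and its late ranges do not overlap between KO and WT; its part in the results on the 10 genes was not tested. The 18 Sertoli cell markers, which bear on Cldn3, summed to 174 to 209 CPM at 12 and 18 h against 197 to 318 CPM at 0 h in KO. In WT they summed to 154 to 196 CPM at 12 h and 134 to 199 CPM at 18 h against 127 to 188 CPM at 0 h, and 0 of 18 passed at 12 or 18 h in either genotype. Ctsl, with the highest mean of the list, weighs on these sums: in WT it averaged 65.3, 102.5 and 105.5 CPM at 0, 12 and 18 h. The median log2 change over the 18 markers was -0.60 at 12 h and -0.68 at 18 h in WT, and -0.85 and -0.68 in KO. Late, the Sertoli cell markers summed to 247 to 1172 CPM in KO and 154 to 380 CPM in WT, with 6 of 18 called higher in KO. Of the defining Sertoli genes, Wt1 had 11.4 to 47.3 CPM in late KO libraries and 7.09 to 17.0 CPM in late WT libraries, and Sox9 had 3.89 to 15.8 CPM and 3.69 to 10.8 CPM. Their part in the late difference was not tested. The 11 leukocyte markers summed to 3.95 to 12.0 CPM in KO and 4.92 to 13.4 CPM in WT libraries, with 0 of 5 tested genes called between late KO and late WT. The 8 endothelial markers summed to 34.95 to 40.7 CPM in KO and 11.6 to 18.8 CPM in WT at 120 h. Of 6 tested, 2 were called higher in late KO than in late WT and 0 lower, and their part in the late difference was not tested. Of the Leydig and erythroid markers, 0 of 4 and 0 of 2 tested were called in that comparison.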

How the data were processed

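Germ cell RNA was sequenced on an Ion Proton from polyA-selected libraries, per the labels' protocols. Bowtie, TopHat, Cufflinks and mm10 were used, per the submitters' processing notes; no source used here names versions, the counter or its strand setting. Read counts for each gene symbol were deposited by the authors as 2 tables, each with 1 library of every group. Tables deposited under the name FPKM hold CPM: 25 of 28 columns match counts scaled by the column total, to within 0.001. The other 3 (KO at 72, 96 and 120 h) matched no count column; their values were whole reads (100% within 0.1 read), used as recovered reads in an alternative only, since no source says which set is right. KO numbering differs between the count and CPM tables, and that of the count tables is used.

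Of 43280 features, 27 with date-like names (up to 0.136% of a library) were left out. In the 7 WT libraries where non-gene counts were listed, 27.1 to 33.1% of reads had no feature and 14.3 to 16.2% were not uniquely aligned; these stayed out of totals. CPM per library is the count over the total of kept features; means of genes that are not among the 10 use TMM-scaled totals. Mitochondrial genes took 4.56 to 8.56% of reads in KO and 1.99 to 6.79% in WT.

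The tests used edgeR 4.0.16 on the counts, in R 4.3.3 (TMM, default expression filter, 17519 genes, 14 group means, robust quasi-likelihood F test, Benjamini-Hochberg over all genes per comparison, threshold 0.05), tested on simulated data first. SE is the log2 change over the square root of F. Alternatives were DESeq2 1.42.0, its size factors, other filters, a replicate block, fits without the 3 shallow KO libraries, with recovered reads, on the groups compared only, and without each library.

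The genes, gene lists and tests were chosen with earlier results of these data known. Named genes are the 10, up to 4 genes per list past the threshold in WT or KO at 12 or 18 h by size of change with a mean of 3 CPM or more in either group, called neighbours, the 5 most similar profiles and Stra8. List genes Gbp2b and Gbp10 were not matched. Intervals and floors (3 counts) cover counting error only. Positions are from GENCODE vM21 on GRCm38 and promoters from RefSeq GRCm38.p6.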

Additional observations from a re-analysis of the deposited data

Results flagged for a closer look

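Il20ra was on opposite sides of WT at different late times. At 48 h both KO libraries (1.04 and 0.599 CPM) were below both WT libraries (2.28 and 1.46 CPM), a log2 difference of -1.09. It did not pass (edgeR, adjusted p = 0.793). At 96 h both KO libraries (2.81 and 2.19 CPM) were above both WT libraries (1.84 and 0.869 CPM), and likewise at 120 h. The log2 differences of 0.89 and 1.14 did not pass either (edgeR, adjusted p = 0.609 and 0.352). KO replicate 2 had only 2 reads at 48 h, 2 at 96 h and 3 at 120 h. The difference between these times was not tested.

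Gbp2 was lower in both KO libraries than in both WT libraries at 0 h (log2 difference -0.40) and higher at 12, 18 and 120 h. At 120 h its mean KO level was 121.8% of 0 h, with both KO libraries (20.3 and 19.4 CPM) above both of 0 h (16.4 and 16.2 CPM), while both WT libraries (6.18 and 8.59 CPM) were below both of 0 h (24.0 and 18.3 CPM). At 120 h the log2 difference of KO over WT was 1.34 ± 0.63 and did not pass (edgeR, adjusted p = 0.155). The other differences between these groups were not tested.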

How the results depend on the processing

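The count of genes higher in late KO than in late WT was 6 to 9 of 10 under each alternative and each left-out library. The other counts moved more. With no filter on low counts 7 genes were called in KO at 12 h, 4 in KO against WT at 72 h and 5 at 96 h. In that fit the log2 change of Hmgn5 in KO at 12 h was -1.705 (edgeR, adjusted p = 2.66e-07), against -1.70 (0.135) with the filter. The shares of all genes called are not given for the alternatives or left-out libraries. The counts here thus do not show a change particular to the 10 genes. A fit on the groups compared only called 9 in KO at 12 h and 8 at 18 h, but 0 in KO against WT at 72, 96 and 120 h and 0 in WT at 120 h against 48 h. Without the 3 shallow KO libraries 1 was called in late KO against 0 h, 0 in KO against WT at 48 h and 0 at 72 h. Leaving out 1 library gave 2 to 3 calls in KO at 12 h, 2 to 4 at 18 h, 0 to 3 in late KO against 0 h, and 0 to 1 in WT at 120 h against 48 h. In KO against WT it gave 0 at 48 h, 0 to 1 at 72 h, 0 to 4 at 96 h and 0 to 3 at 120 h. The causes were not tested; a group reduced to 1 library is assumed to vary like the others.

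The log2 change of Fbxo40 in KO at 12 h, near 0, changed sign with DESeq2 size factors (0.004), with DESeq2 (0.005), with the replicate block (0) and over left-out libraries (-0.106 to 0.089). That of Hmgn5 in late KO against 0 h did so with DESeq2 (-0.006), crossed numbers (-0.117) and left-out libraries (-0.436 to 0.694). The Il20ra difference of late KO over late WT was -1.27 to 0.87 over left-out libraries. In KO against WT at 18 h, Il20ra and Fam179a, with no read in 1 KO library, came to -2.73 and -3.89 when the other was left out. Over the tested values of single genes, alternatives other than left-out libraries kept 405 on the same side of the threshold, brought 29 past it, took 19 out and turned the sign of 5.

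With the replicate number as a block, 6 genes were called in KO at 12 h and 6 at 18 h, 4 in late KO against 0 h, 9 in late KO against late WT and 2 in WT at 120 h against 48 h. Added to the calls were Havcr1 in KO at 12 h (adjusted p = 0.0163), at 18 h (0.0121) and in late KO against 0 h (0.0248), Gbp2 in KO at 12 h (0.016) and Hmgn5 in late KO against late WT (0.0316). Same-numbered libraries deviated together among WT groups (r = 0.088 to 0.694 over 21 pairs of groups), but not throughout among KO groups (-0.335 to 0.808) or between KO and WT (-0.428 to 0.318, 49 pairs). The labels tie the numbers to no shared animal or day, so the fit without the block was kept. With KO numbers crossed, chosen after seeing the data, 6, 6, 3, 9 and 1 genes were called. The share of all genes called with either block is not given. Counts of a few reads limit most values at 12 and 18 h in WT.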

Other observations

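Within each of the count tables, which hold 1 library of every group, the late mean of KO was above that of WT for 10 of the 10 genes, against 53.1% of all genes tested in one table and 49.0% in the other. In KO at 12 h, 10 of the genes were lower than at 0 h in one table and 9 in the other, against 50.3% and 52.5% of all genes tested. With recovered reads in place of the 3 shallow KO libraries, Krt75 had 6.03 CPM at 72 h and 5.49 CPM at 96 h in KO. Zfp750 had 2.87 CPM at 96 h, and its call of KO against WT there was lost (1.75, edgeR adjusted p = 0.0936). With these reads Hmgn5 was called in late KO against late WT (0.845, 0.0424). Havcr1 was called in KO at 12 h (0.0464) and 18 h (0.0479), and Gbp2 in KO at 12 h (0.047).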
